A study of Mus musculus with 20 samples.

Results

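Ly6a, Ly6c1, Ly6c2, Ly6d, Ly6e, Ly6k and Lypd3 are 7 of the 54986 genes in the deposited table, and were picked by name as surface antigens of the Ly6 family. Ly6a encodes Sca-1. The choice was made with the levels of these genes in the same libraries known, so their levels and fold changes are given below as a description, with no p-value. Of the 7 genes, 4 (Ly6a, Ly6c1, Ly6c2 and Ly6e) reached 1 count per 1000000 reads (CPM) in at least 2 of the 20 libraries and were fitted with the other genes. Ly6d, Ly6k and Lypd3 did not.

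Ly6 proteins are small, cysteine-rich proteins of a common fold, and most of them are tethered to the outer face of the plasma membrane by a glycosylphosphatidylinositol (GPI) anchor. Sca-1 is used as a sorting antigen for blood stem cells and for subsets of mammary epithelial and tumor cells in the mouse, and Ly6C marks monocytes, some T cells and endothelium. Ly6a, Ly6c1 and Ly6e are known as genes that interferons can induce, and the Ly6 genes lie side by side in a cluster on mouse chromosome 15.

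All libraries came from NMuMG, an epithelial cell line of the normal mouse mammary gland, and each of the 10 conditions had 2 libraries. The first kind of library held unmodified NMuMG, NMuMG treated with TGFβ, NMuMG silenced by shRNA for hnRNP E1 (E1KD), a regulator of transcripts of the epithelial-mesenchymal transition (EMT) encoded by Pcbp1, and 2 lines grown out from the primary tumor (M1P) and from lung metastases (L1P) that E1KD cells had formed in NOD/SCID mice. M1P and L1P therefore carry the E1KD shRNA, passed through an animal and were selected in culture by puromycin resistance. The second kind held NMuMG with an empty vector, NMuMG clones 12 and 16 that overexpress the lincRNA Platr18, a pair of lines made from E1KD cells, in which a second shRNA was either scrambled (E1KD SCR) or directed at Platr18 (E1KD Platr18 KD). Each clone is 1 line, and its duplicates share its history. The labels do not say whether duplicates were separate cultures.

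The kinds of library were told apart by the files rather than by the labels, and levels were compared only within a kind. The mitochondrial rRNA mt-Rnr2 was at 333 to 492 CPM in the first kind and 113874 to 165149 CPM in the second. Libraries of the first kind were scaled to 50.8 to 60.0 M reads and those of the second to 63.0 to 147.3 M, so that 3 reads, the floor used here, were worth at most 0.0591 CPM and 0.0477 CPM. Counting intervals and floors cover counting error only. Pcbp1 was at 287 and 312 CPM in the NMuMG pair, 16.6 and 14.2 CPM in the E1KD pair, 32.3 CPM in both Empty vector libraries and 3.28 and 3.46 CPM in the E1KD SCR pair. Platr18 was at 3.68 and 3.06 CPM in Empty vector, 3092 and 3096 CPM in clone 12, 813 and 820 CPM in clone 16, 2.92 and 3.10 CPM in the E1KD SCR pair and 0.136 and 0.170 CPM after its silencing. E1KD replicate 1 had a higher sum over genes than any other library of its kind, and its values exceeded those of replicate 2 by a median of 0.294 on the log2 scale.

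In the deposited table and GRCm38, 6 of the 7 genes lie on chromosome 15: Ly6d (ENSMUSG00000034634.7) at chr15:74762056-74763620, Ly6k (ENSMUSG00000044678.11) at chr15:74796874-74799986, Ly6e (ENSMUSG00000022587.14) at chr15:74955051-74959905, Ly6a (ENSMUSG00000075602.10) at chr15:74994877-74998031, Ly6c1 (ENSMUSG00000079018.10) at chr15:75044018-75048830 and Ly6c2 (ENSMUSG00000022584.14) at chr15:75108158-75111970. Ly6e is on the forward strand and the other 5 on the reverse strand. Lypd3 (ENSMUSG00000057454.5), which encodes the uPAR-like protein C4.4A, lies elsewhere, at chr7:24636550-24641118 on the forward strand.

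Ly6c1 and Ly6c2 are near copies, and the first 300 bases of their coding sequences (transcripts Ly6c1-201 and Ly6c2-201 of GENCODE M21, 5′ to 3′ in the sense of the gene) are shown because reads that fall in them can be told apart only at the bases in capitals, the 7 at which the sequences differ.
Ly6c1: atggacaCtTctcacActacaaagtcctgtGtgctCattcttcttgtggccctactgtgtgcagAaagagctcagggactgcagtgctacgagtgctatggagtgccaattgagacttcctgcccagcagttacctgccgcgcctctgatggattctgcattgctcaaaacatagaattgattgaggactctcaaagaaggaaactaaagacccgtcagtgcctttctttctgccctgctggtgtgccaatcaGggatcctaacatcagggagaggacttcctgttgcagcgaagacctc
Ly6c2: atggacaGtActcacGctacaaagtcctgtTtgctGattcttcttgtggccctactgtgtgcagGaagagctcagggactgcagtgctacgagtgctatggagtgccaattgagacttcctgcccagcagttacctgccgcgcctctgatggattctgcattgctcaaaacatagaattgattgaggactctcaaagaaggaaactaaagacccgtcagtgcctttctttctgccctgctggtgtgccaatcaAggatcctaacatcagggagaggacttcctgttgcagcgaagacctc
Over their whole coding sequences, of 393 bases each, 384 bases were identical (97.7%). Ly6a was 82.6% identical to Ly6c1 over aligned coding bases, and Ly6e 51.9%. Of all 50-base stretches in the coding transcripts of a member, 31.2% for Ly6c2, 32.8% for Ly6c1 and 246 of 1297 for Ly6a also occurred in a transcript of another gene, mainly of each other and of Ly6i, while for Ly6e and Ly6d none did (0 of 2829 and 0 of 695). The authors' expectation-maximization method divides such reads between genes, so the values of Ly6a, Ly6c1 and Ly6c2 are uncertain where another of them is high. Those of Ly6e are free of this limit. Ly6k and Lypd3 overlap antisense genes on the opposite strand, which had at most 0.0196 CPM and 0 CPM. Whether reads were counted by strand is not given in the sources used here.

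RefSeq promoters of 3 members (Ly6c1, Ly6c2 and Lypd3) were in the table used here. The 250 bases before the start lying farthest upstream are shown for Ly6c1 and Ly6c2, to set beside the coding sequences above, as the sense strand in GRCm38.p6 (Ly6c1 at chr15:75048838-75049087 and Ly6c2 at chr15:75111972-75112221, both on the reverse strand). Capitals mark matches, on either strand, to the CCAAT box (CCAAT), the TATA box (TATAAA) and an E-box (CAGCTG), and no match overlaps another.
Ly6c1: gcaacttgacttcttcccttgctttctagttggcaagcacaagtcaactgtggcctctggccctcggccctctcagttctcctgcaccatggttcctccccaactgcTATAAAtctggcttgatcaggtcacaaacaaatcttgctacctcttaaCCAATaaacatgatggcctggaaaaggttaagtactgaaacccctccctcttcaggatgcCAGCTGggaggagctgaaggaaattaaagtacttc
Ly6c2: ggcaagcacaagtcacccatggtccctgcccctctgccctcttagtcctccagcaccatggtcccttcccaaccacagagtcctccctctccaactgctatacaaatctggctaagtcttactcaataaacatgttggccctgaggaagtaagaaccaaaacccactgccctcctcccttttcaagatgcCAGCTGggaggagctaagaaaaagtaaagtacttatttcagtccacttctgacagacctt
When aligned with gaps, 170 of 284 positions of these stretches were identical (59.9%). Both held CAGCTG, beginning 35 bases before the start of Ly6c1 and 60 bases before that of Ly6c2, and 13.0% of 32817 mouse promoter stretches of this length hold it. CCAAT (33.8% of stretches) and TATAAA (12.4%) were found for Ly6c1 only, and neither is in the stretch of Ly6c2. The interferon motifs known as ISRE (2.97%) and GAS (TTCNNNGAA, 7.01%), where N is any base, and the AP-1 motif TGANTCA (6.75%) were in neither stretch. A match is a description of the letters and not of a bound site.

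Silencing of hnRNP E1 was read first from E1KD beside NMuMG. Ly6a, the gene of Sca-1, was at 0.0531 and 0.0754 CPM in NMuMG, which is 3 and 4 reads, while E1KD had 45.4 and 35.2 CPM. Ly6c1, a gene of the Ly6C antigen, was at 0.106 and 0.151 CPM in NMuMG and at 25.9 and 19.9 CPM in E1KD. Ly6e, whose product is a GPI-anchored protein widely found on epithelial and blood cells, was at 3.63 and 3.75 CPM in NMuMG and at 85.7 and 70.0 CPM in E1KD. Each of the 3 genes was higher in both E1KD libraries than in either NMuMG library, as were 43.9% of all genes, and Ly6c1 went from 6 and 8 reads to 1318 and 1075.

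The mean of Ly6a in E1KD was 626-fold that in NMuMG (95% counting interval 304 to 1562), a ratio that rests on 7 reads in the control. It was 178-fold for Ly6c1 (106 to 327), which rests on 14 reads, and 21.1-fold for Ly6e, which had 404 reads in NMuMG and 8144 in E1KD. On the log2(CPM + 1) scale, which understates the change of genes with low CPM, the differences were 5.27 for Ly6a (standard error 0.104), 4.39 for Ly6c1 (0.0946) and 4.06 for Ly6e (0.0947). Ly6c2, the copy of Ly6c1, had no read in NMuMG and 37 and 10 reads in E1KD (0.728 and 0.185 CPM). With the floor of 3 reads per library in place of 0, E1KD was at least 8.33-fold higher, and its log2 difference was 0.52 (standard error 0.120). The E1KD duplicates of Ly6c2 were far apart, and replicate 1 held most of the reads. Of the 4 members fitted, 3 passed the limits used for all genes (an unadjusted p under 0.001 together with a log2 difference of 1 or more in size), as did 9.44% of the 17106 genes. The members were chosen on such values and nothing is read from that count.

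All genes had a median log2 fold change of 0.17 in E1KD. After median-of-ratios scaling the differences of Ly6a, Ly6c1 and Ly6e were 5.07, 4.20 and 3.85. In bulk libraries a change in the share of cells that make a transcript and a change in its amount per cell cannot be told apart.

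**Figure D1:**
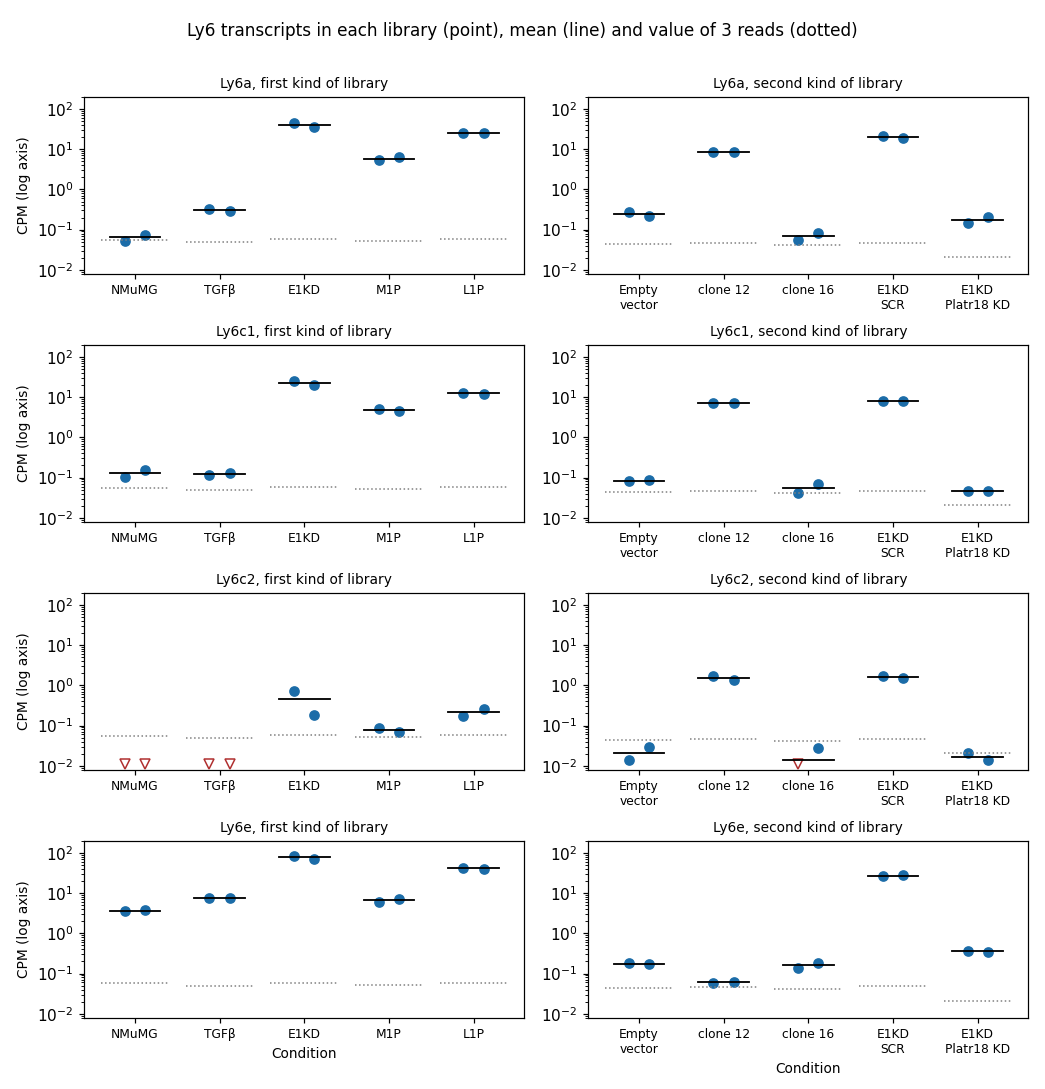
Level of Ly6a, Ly6c1, Ly6c2 and Ly6e in CPM (log axis) by condition, with 1 point per library, a line at the mean of the 2 libraries, an open triangle for a library with 0 reads and a dotted line at the value of 3 reads (the higher of the pair). In the first kind of library the E1KD points of Ly6a lie at 35.2 and 45.4 CPM and the NMuMG points near the 3-read line, and in the second kind Ly6a is high in E1KD SCR and clone 12 while Ly6e is high in E1KD SCR alone.

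The same silencing can be read from E1KD SCR beside Empty vector, in the second kind of library. Ly6a was at 0.274 and 0.217 CPM in Empty vector and at 21.8 and 19.5 CPM in E1KD SCR. Ly6c1 was at 0.0822 and 0.0869 CPM in Empty vector and at 8.26 and 8.21 CPM in E1KD SCR. Ly6e was at 0.178 and 0.174 CPM in Empty vector and at 26.9 and 27.6 CPM in E1KD SCR. All 3 were higher in both E1KD SCR libraries than in either control, as were 41.7% of all genes, and the duplicates of E1KD SCR were closer to each other than those of E1KD. Platr18 overlapped between these groups, at 3.68 and 3.06 CPM in Empty vector and 2.92 and 3.10 CPM in E1KD SCR. In the first kind it was at 1.24 and 1.45 CPM in NMuMG and at 17.9 and 14.6 CPM in E1KD. The part of Platr18 in the Ly6 levels was not tested.

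The means differed by 84.0-fold for Ly6a (95% counting interval 60.3 to 121), 97.4-fold for Ly6c1 (55.6 to 189) and 155-fold for Ly6e (105 to 239), with log2 differences of 4.12, 3.09 and 4.58. Ly6c2 had 1 and 2 reads in Empty vector and was at 1.69 and 1.54 CPM in E1KD SCR, a ratio of 75.8 with a counting interval of 25.9 to 375. All 4 members passed the limits here, beside 5.98% of all genes. Between E1KD and NMuMG the order of the log2 differences was Ly6a, Ly6c1, Ly6e and Ly6c2, and between E1KD SCR and Empty vector it was Ly6e, Ly6a, Ly6c1 and Ly6c2. The control levels differ between the kinds of library, and the vectors differ as well, so these orders cannot be set against each other.

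TGFβ, the cytokine that drives EMT in these cells, gave other values. Ly6a was at 0.317 and 0.283 CPM after TGFβ, which is 19 and 17 reads against 3 and 4 in NMuMG, a ratio of 4.67 with a counting interval of 2.06 to 12.5. Ly6e was at 7.48 and 7.53 CPM, 2.03-fold the level in NMuMG (1.81 to 2.29), with a log2 difference of 0.86 (standard error 0.0947). Ly6c1 was at 0.117 and 0.133 CPM, within the range of the NMuMG libraries, and Ly6c2 had no read in either group, which allows up to 3 reads per library. TGFβ-treated and E1KD cells share the NMuMG libraries as control, so their differences are given side by side: 0.29 and 5.27 for Ly6a, -0.0042 and 4.39 for Ly6c1, and 0.86 and 4.06 for Ly6e on the log2 scale. None of the 4 members passed the limits after TGFβ, beside 13.5% of all genes. After median-of-ratios scaling Ly6e reached 1.02 and passed, and with a pseudocount of 0.1 Ly6a (1.29) and Ly6e (1.00) did.

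In the tumor-derived lines Ly6a, Ly6c1 and Ly6e were at levels between those of NMuMG and E1KD. Ly6a was at 5.32 and 6.22 CPM in M1P and at 24.9 and 25.7 CPM in L1P. Ly6c1 was at 4.96 and 4.41 CPM in M1P and at 12.9 and 12.3 CPM in L1P. Ly6e was at 6.02 and 7.25 CPM in M1P and at 42.4 and 40.1 CPM in L1P. Each of these 3 genes was lower in both M1P libraries than in either E1KD library, as were 45.0% of all genes, and higher in both L1P libraries than in either M1P library, as were 40.1%.

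From E1KD to M1P the means were lower by 6.97-fold for Ly6a (95% counting interval 6.40 to 7.56), 4.89-fold for Ly6c1 (4.43 to 5.36) and 11.7-fold for Ly6e (10.9 to 12.6), with log2 differences of -2.60, -2.06 and -3.37. From M1P to L1P they were higher by 4.39-fold (4.03 to 4.79), 2.68-fold (2.42 to 2.97) and 6.22-fold (5.75 to 6.73), with log2 differences of 1.96, 1.25 and 2.47. At both steps 3 of the 4 members passed the limits, beside 3.59% of all genes from E1KD to M1P and 1.21% from M1P to L1P. From E1KD to M1P 2 passed when the E1KD and M1P libraries alone were fitted, and Ly6c1 did not. The median over all genes was -0.17 at the first step and 0.02 at the second. The steps share the M1P libraries, and a low value in M1P enters both. Ly6c2 had 5 and 4 reads in M1P and 9 and 13 reads in L1P.

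Ly6e and Ly6a did not keep one proportion along this series. The CPM of Ly6e was 1.89 and 1.99 times that of Ly6a in the E1KD libraries, 1.13 and 1.17 times in M1P and 1.70 and 1.56 times in L1P. The CPM of Ly6a was 1.75 and 1.77 times that of Ly6c1 in E1KD, 1.07 and 1.41 times in M1P and 1.94 and 2.10 times in L1P. These ratios are within a library, are not corrected for transcript length and serve only to compare libraries. For both pairs the M1P libraries had the lowest ratios of the 3 lines.

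Platr18 itself was higher in M1P (25.7 and 26.2 CPM) than in E1KD, where it was at 17.9 and 14.6 CPM, and higher again in L1P (76.9 and 73.3 CPM). From E1KD to M1P the Ly6 members and Platr18 thus had differences of opposite sign, and from M1P to L1P of the same sign.

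**Figure D2:**
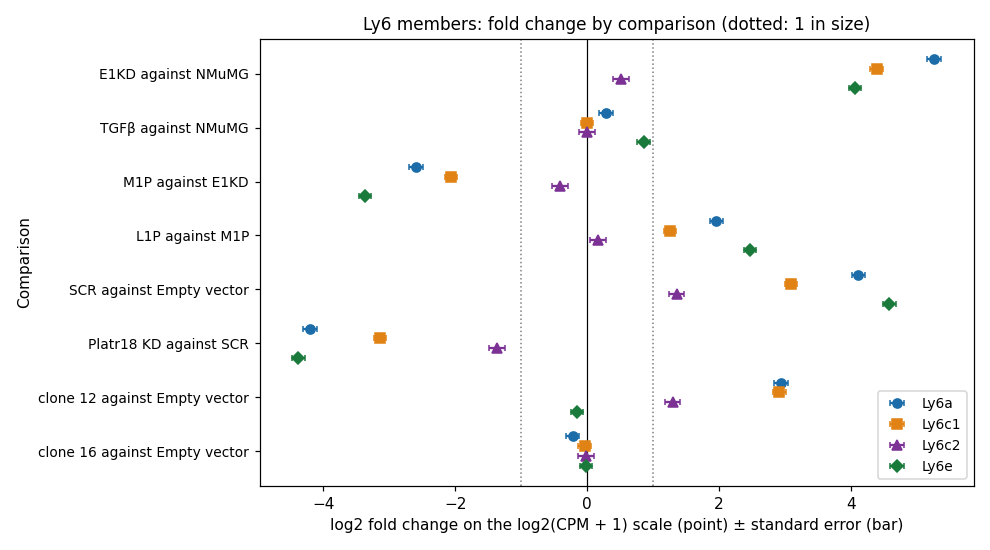
Log2 fold change (horizontal axis, log2(CPM + 1) scale) of the 4 fitted members in 8 comparisons, with bars of 1 standard error from the fit over 20 libraries and dotted lines at 1 and -1. Ly6a, Ly6c1 and Ly6e lie above 1 in E1KD, L1P and E1KD SCR and below -1 in M1P and E1KD Platr18 KD, and in clone 12 Ly6e (-0.15) lies apart from the other members.

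The silencing of Platr18 in E1KD cells was read from E1KD Platr18 KD beside E1KD SCR. Both E1KD Platr18 KD libraries carry the same shRNA label, and E1KD SCR is a single line. An effect of Platr18 loss cannot be told apart from other effects of that shRNA or of the lines. Ly6a was at 0.149 and 0.204 CPM in E1KD Platr18 KD, against 21.8 and 19.5 CPM in E1KD SCR. Ly6c1 was at 0.0475 and 0.0477 CPM, which is 7 reads in each library. Ly6e was at 0.373 and 0.341 CPM, which is 55 and 50 reads. All these values lie under those of both E1KD SCR libraries, as did those of 40.0% of all genes, although E1KD Platr18 KD libraries were the deepest of the study.

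The means were lower in E1KD Platr18 KD by 117-fold for Ly6a (95% counting interval 89.1 to 157), 173-fold for Ly6c1 (103 to 318) and 76.3-fold for Ly6e (62.7 to 93.4), with log2 differences of -4.20 (standard error 0.104), -3.14 (0.0946) and -4.38 (0.0947). Ly6c2 was at 3 and 2 reads, against 125 and 97 reads in E1KD SCR, a log2 difference of -1.36. All 4 members passed the limits here, as did 1.48% of all genes. Platr18 differed by -1.80 on the same scale (19.7-fold lower). E1KD SCR is the only control of this comparison and is also the treated group of the comparison with Empty vector, so a high value in E1KD SCR enters both.

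Levels in E1KD Platr18 KD were near those of Empty vector for some members. Ly6a was 0.149 and 0.204 CPM in the former and 0.274 and 0.217 CPM in the latter. Ly6c1 was at 0.0475 and 0.0477 CPM in E1KD Platr18 KD, which is 7 reads in each library. Empty vector had 0.0822 and 0.0869 CPM, which is 6 reads in each at a lower depth. No direction is read from so few reads. Ly6e was higher, at 0.373 and 0.341 CPM against 0.178 and 0.174 CPM. Pcbp1 was at 3.04 and 2.92 CPM in E1KD Platr18 KD, close to the 3.28 and 3.46 CPM of E1KD SCR.

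Overexpression of Platr18 gave different values in the 2 clones. Ly6a was at 8.73 and 8.34 CPM in clone 12 and at 0.0554 and 0.0838 CPM in clone 16, with Empty vector at 0.274 and 0.217 CPM between them. Ly6c1 was at 7.09 and 7.30 CPM in clone 12 and at 0.0416 and 0.0698 CPM in clone 16. Ly6c2 was at 1.69 and 1.33 CPM in clone 12 and had 0 and 2 reads in clone 16. The 3 genes were higher in both clone 12 libraries than in either Empty vector library, as were 37.2% of all genes, and no clone 16 library exceeded the higher Empty vector library.

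In clone 12 the means of Ly6a and Ly6c1 were 34.8-fold and 85.1-fold those of Empty vector, on 1132 against 35 reads and 953 against 12 reads. In clone 16 Ly6a was 3.53-fold lower (1.72 to 8.02), on 10 and 35 reads, and Ly6c1 had 8 reads against 12. Ly6e showed another pattern, at 0.0594 and 0.0614 CPM in clone 12 and 0.139 and 0.182 CPM in clone 16. Clone 12 had 8 reads of Ly6e against 25 in Empty vector, 2.91-fold lower (1.27 to 7.48), and clone 16 overlapped Empty vector. Of the 4 members, 3 passed the limits in clone 12, beside 3.65% of all genes, and 0 in clone 16, beside 1.78%. With both clones in 1 group 2 passed, beside 1.46% of all genes, and their values rest on clone 12 alone. Between the clones 3 passed, beside 4.38% of all genes called, with log2 differences of -3.16 for Ly6a, -2.96 for Ly6c1 and -1.31 for Ly6c2. Clone 16 held less Platr18 than clone 12 but far more than either E1KD SCR library. The part of the amount of Platr18 in the difference between the clones was not tested.

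Within the first kind of library the order of Ly6a by mean was E1KD, L1P, M1P, TGFβ and NMuMG. Ly6c1 had the same order except that TGFβ and NMuMG overlapped. Ly6e was in the order E1KD, L1P, TGFβ, M1P and NMuMG. In the second kind Ly6a was in the order E1KD SCR, clone 12, Empty vector, E1KD Platr18 KD and clone 16. Ly6c1 began in the same way, with clone 16 and E1KD Platr18 KD overlapping at its lower end. Ly6c2 overlapped between E1KD SCR and clone 12, and Ly6e between Empty vector and clone 16. The ratio of Ly6c2 to Ly6c1 was 0.205 and 0.188 in E1KD SCR and 0.239 and 0.183 in clone 12, and 0.0281 in E1KD replicate 1. Since the expectation-maximization method divides the reads of this pair, that difference between kinds of library cannot be told apart from the way reads were assigned.

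The other 3 members were at or near the floor. Ly6d, a marker of stratified and luminal epithelium and of early B cells, had 8 and 13 reads in L1P (0.157 and 0.252 CPM), 8 and 9 reads in E1KD Platr18 KD, and at most 4 reads in any other library. Ly6k, known from testis, had 1 read in 1 L1P library. Lypd3, known from suprabasal keratinocytes, had 1 or 2 reads in each of 3 libraries and none in the others. No difference in Ly6k or Lypd3 was detectable at this depth.

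The pattern of Ly6a over the 20 libraries was compared with those of all fitted genes by Pearson's r of log2(CPM + 1), after the mean of each kind of library was taken away. It was 0.991 with Ly6c1, 0.815 with Ly6e and 0.802 with Ly6c2. These r describe 20 libraries of 10 conditions that share depth and kind. Ly6a, Ly6c1 and Ly6c2 also hold shared stretches, whose reads are divided between them. Outside the members the 5 genes most like Ly6a were Frmd4a, Znrf3, Dhx33, Gvin1 and Azin1, with r from 0.937 to 0.943. Of these, Frmd4a averaged 39.8 CPM in unmodified NMuMG and 76.3 in E1KD, and Znrf3 26.3 and 41.2. Dhx33 averaged 49.8 and 89.5 CPM, and Azin1 65.8 and 129. Gvin1, a very large interferon-inducible GTPase, differed far more in ratio. It averaged 0.0271 CPM in unmodified NMuMG, against 13.5 for E1KD, 8.51 for M1P and 20.9 for L1P. In the second kind of library its mean was 0.359 CPM in Empty vector, 17.5 in clone 12, 0.0208 in clone 16, 8.67 in E1KD SCR and 0.0442 in E1KD Platr18 KD. The 5 most like Ly6e were Platr14, Pkdcc, Zfp354c, Chst1 and Podxl, with r from 0.911 to 0.938. Podxl, a sialomucin of the cell surface, averaged 1.38 CPM in unmodified NMuMG, against 29.5 for E1KD, 4.74 for M1P and 11.4 for L1P. In the second kind its mean was 0.0137 CPM in Empty vector, 0.122 in clone 12, 5.42 in E1KD SCR and 0.320 in E1KD Platr18 KD. Gvin1, like Ly6a, was far higher in clone 12 than in Empty vector. Podxl, like Ly6e, was far lower in clone 12 than in E1KD SCR. Against Empty vector, Podxl was higher in clone 12, from a mean under the 3-read floor, while Ly6e was lower (0.0604 against 0.176 CPM). In the first kind of library alone, the genes named for Ly6a ranked from 40 to 347 in likeness, and those for Ly6e from 13 to 193.

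The wider family was taken from a list of 45 other genes of the Ly6/uPAR fold, of which 43 were in the table and 6 (Ly6g2, Lynx1, Lypd1, Plaur, Psca and Tex101) passed the filter. The other 37 had at most 0.985 CPM, and 7 of them had no read in any library. In E1KD 1 of the 6 rose and 2 fell, after TGFβ 2 fell, from E1KD to M1P 2 fell, from M1P to L1P 0 passed with limma although 2 had an unadjusted p under 0.05, and in E1KD Platr18 KD 1 fell. In E1KD SCR against Empty vector 2 fell. The background shares are those given above for each comparison. Adjusted p-values below are from limma with Benjamini-Hochberg adjustment over 17106 genes.

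Ly6g2, listed in the table as RP24-560I8.2, is the tested gene nearest to Ly6c2, 104 kb beyond its end, and in E1KD and E1KD SCR its differences had the opposite sign to those of the members. Unmodified NMuMG had 9.38 and 8.86 CPM of it and E1KD had 0.945 and 0.628, and only 1 and 0 reads were left after TGFβ. In E1KD it fell by 2.51 on the log2 scale, with a standard error of 0.0831 (limma, adjusted p = 5.0e-12). The log2 fold change after TGFβ was -3.33 (limma, adjusted p = 2.1e-13). It also fell in E1KD SCR against Empty vector, from 7.03 and 6.58 CPM to 0.338 and 0.334 CPM (log2 fold change -2.55, adjusted p = 6.8e-12 from limma). Unlike Ly6a, it fell in both clones, by 1.90 in clone 12 (adjusted p = 5.5e-10 from limma) and by 2.16 in clone 16 (adjusted p = 3.0e-10 from limma).

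Lynx1, a modulator of nicotinic acetylcholine receptors, was the tested gene nearest to Ly6e on the other side, 202 kb before its start. Its levels were 2.94 and 2.87 CPM in unmodified NMuMG and 8.50 and 6.71 CPM after hnRNP E1 silencing, and then 2.01 and 2.43 CPM in the tumor line and 5.30 and 5.28 CPM in the metastasis line. It rose by 1.13 in E1KD (adjusted p = 4.3e-07 from limma), fell by 1.41 from E1KD to M1P (adjusted p = 1.1e-07 from limma) and differed by 0.97 between L1P and M1P, under the limit of 1. In E1KD Platr18 KD it fell from 3.09 and 3.15 CPM to 0.733 and 0.715 CPM (log2 fold change -1.26, adjusted p = 8.8e-07 from limma). Its directions at these steps were those of Ly6e, and its differences were smaller. The call in E1KD was lost with median-of-ratios factors (0.95), without E1KD replicate 1 (0.98) and when the compared groups alone were fitted, and the last of these also ended the call from E1KD to M1P. From M1P to L1P Lynx1 passed with equal sums (1.02), with a pseudocount of 0.1 (1.22) and without M1P replicate 2 (1.06). The change of Lynx1 from NMuMG differed between hnRNP E1 silencing and TGFβ by 1.35 (adjusted p = 3.2e-08 from limma).

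Psca, the prostate stem cell antigen, fell after TGFβ from 4.30 and 5.15 CPM to 0.250 and 0.183 CPM (log2 fold change -2.23, adjusted p = 1.6e-11 from limma) and fell from E1KD to M1P, from 7.38 and 6.39 CPM to 0.593 and 0.620 CPM (-2.29, adjusted p = 4.6e-11 from limma). Tex101, a GPI-anchored protein of germ cells, had 38.1 and 38.3 CPM in Empty vector, 159 and 163 CPM in clone 12, 0.333 and 0.251 CPM in clone 16, and 0.217 and 0.111 CPM in E1KD SCR. It rose by 2.04 in clone 12 (adjusted p = 2.0e-11 from limma) and fell in clone 16 (log2 fold change -4.92, adjusted p = 1.3e-15 from limma) and in E1KD SCR (-5.08, adjusted p = 8.9e-16 from limma). Clone 12 was thus higher than clone 16 for Tex101 as for Ly6a, while in E1KD SCR Tex101 fell and Ly6a was high. Lypd1 and Plaur, the gene of the urokinase receptor, passed the limits in no comparison, although Lypd1 did in E1KD without E1KD replicate 2 (1.21).

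**Figure D3:**
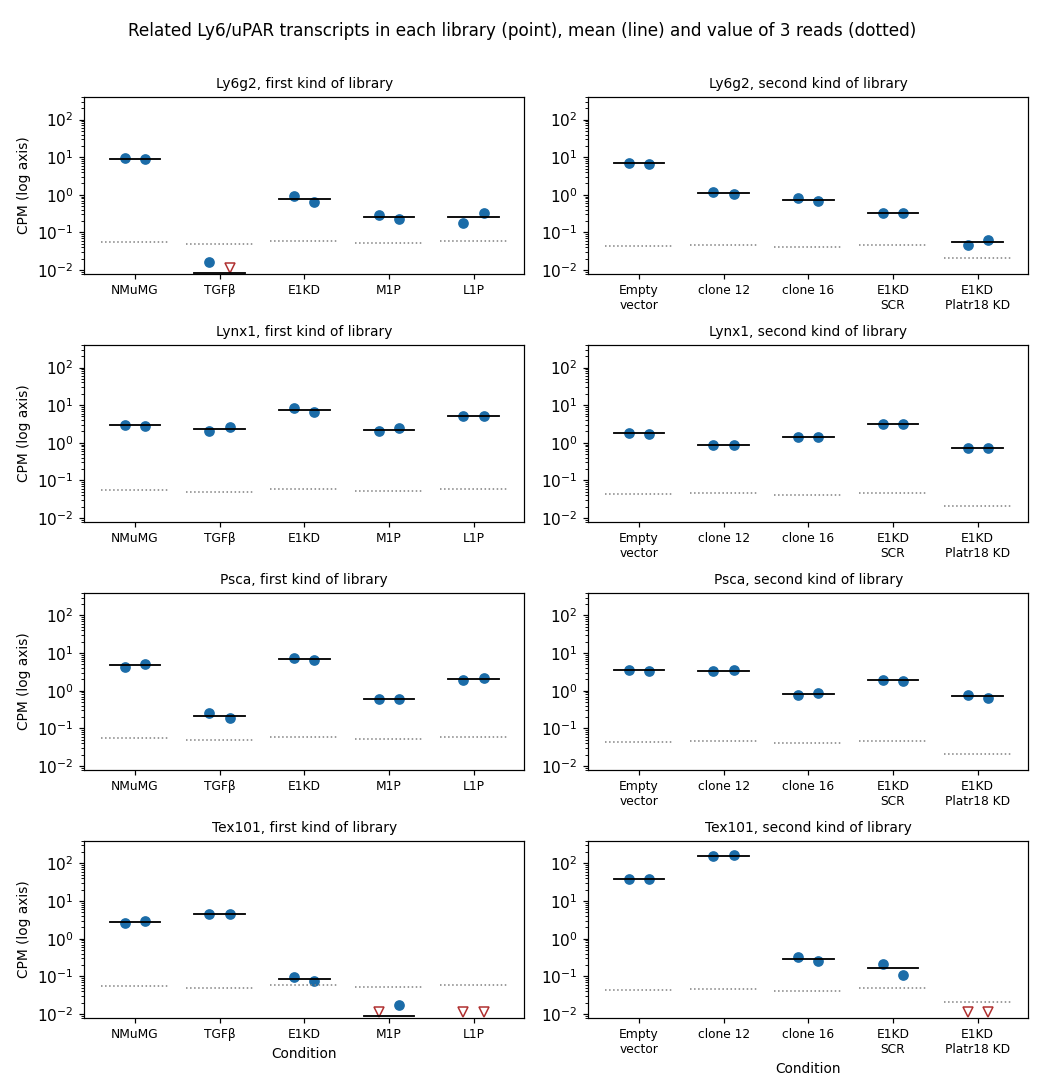
Level of 4 related genes that were not members (Ly6g2, Lynx1, Psca and Tex101) in CPM (log axis) by condition, drawn as in the plot of the members' levels. Ly6g2 is highest in NMuMG (8.86 and 9.38 CPM) and in Empty vector (6.58 and 7.03 CPM), and Tex101 is at 159 and 163 CPM in clone 12 and at 0.251 and 0.333 CPM in clone 16.

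The neighbourhood was examined because the members lie together. Of 47 protein-coding genes other than members within 1 Mb of the Ly6 genes on chromosome 15, 24 were tested, among them Ly6g2, Lynx1 and Psca of the wider family. Of the 24, 4 rose and 1 fell in E1KD, beside 9.44% of all genes called. From E1KD to M1P 0 rose and 4 fell (3.59% of all genes), and in E1KD Platr18 KD 0 rose and 2 fell (1.48%). Their median log2 fold change was 0.44 in E1KD, beside 0.17 over all genes, and -0.17 in E1KD Platr18 KD, beside -0.02. Arc, an activity-regulated gene, went from 0.106 and 0.132 CPM in NMuMG to 3.25 and 2.73 CPM with hnRNP E1 silenced and back to 0.175 and 0.124 CPM in M1P, with log2 fold changes of 1.83 and then -1.79. Them6 fell from 77.2 and 67.9 CPM in E1KD to 25.3 and 24.8 CPM in M1P, and it also fell in E1KD Platr18 KD (log2 fold change -1.25), in clone 16 against clone 12 (-1.42) and after TGFβ. Nrbp2 rose in E1KD (2.51) and in E1KD SCR (1.88). Gsdmd fell after TGFβ (-1.69) and Eppk1 rose in E1KD (1.57). The other neighbours that passed in any comparison were Ly6g2, Lynx1 and Psca, described above.

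**Figure D4:**
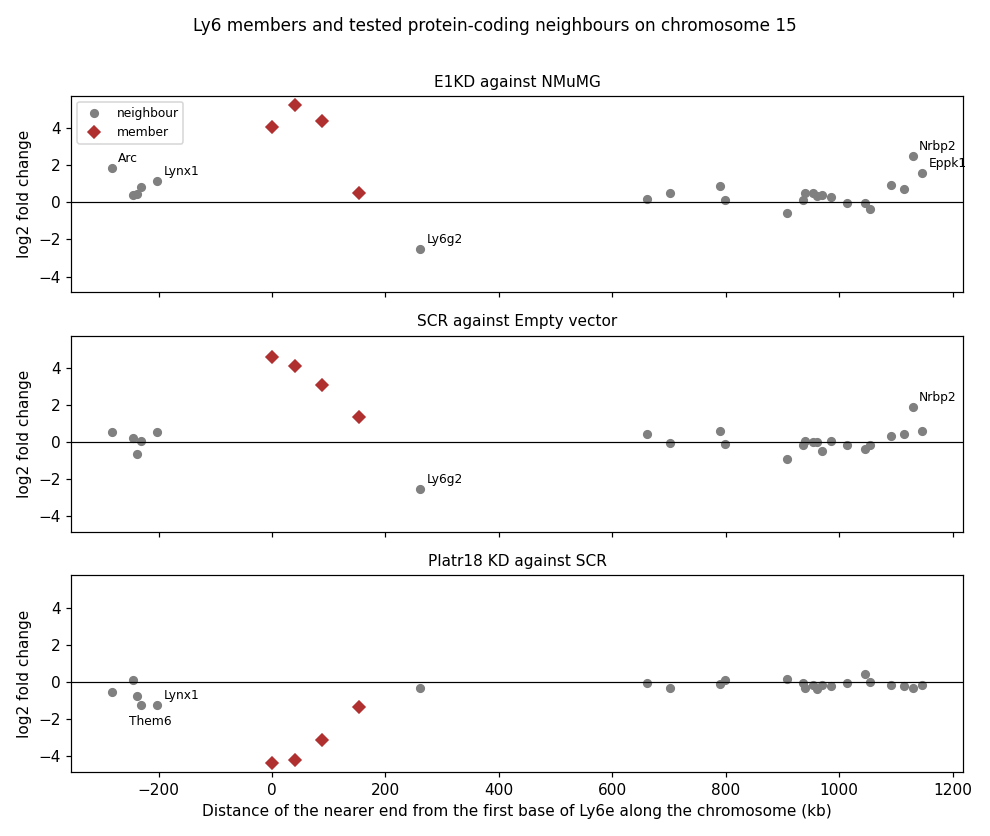
Log2 fold change (vertical axis) against the distance in kb of the nearer end from the first base of Ly6e (horizontal axis) for 4 members (diamonds) and 24 tested neighbours (circles) on chromosome 15, in 3 comparisons. The members lie at 0.52 to 5.27 in E1KD and at -4.38 to -1.36 in E1KD Platr18 KD, while Ly6g2, 104 kb beyond Ly6c2, lies at -2.51 and -0.34.

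Ly6 proteins need the GPI anchor to stay on the membrane, so the genes of its synthesis and attachment were listed. Of 30 such genes, 28 were tested. Only Pgap1, which remodels the anchor, passed the limits in any comparison. It rose from 24.1 and 20.9 CPM in E1KD to 69.3 and 66.1 CPM in M1P (log2 fold change 1.55). In E1KD the list lay between -0.57 (Mppe1) and 0.76 (Pigw), and in E1KD Platr18 KD between -0.35 (Pigw) and 0.40 (Pgap1). In these comparisons 0 of 28 passed with limma, and 18 and 9, in that order, had an unadjusted p under 0.05. Of all genes 9.44% and 1.48% passed there.

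Of 30 genes of the interferon response, 19 were tested. In E1KD 1 rose and 3 fell: Bst2 (tetherin, a GPI-anchored antiviral protein) rose by 1.51 from 2.04 and 1.89 CPM to 8.88 and 6.19 CPM, and Ifit3 and Ifit2 fell, by 1.61 and 1.45. In E1KD SCR 0 rose and 2 fell (Ifit3 by 1.99 and Ifit2 by 1.44). In E1KD Platr18 KD 0 of 19 passed the limits with limma (6 had an unadjusted p under 0.05), and the list lay between -0.22 (Bst2) and 0.91 (Ifit3). After TGFβ 4 rose and 1 fell, among them B2m (2.28) and Oasl2 (1.55). The shares of all genes that passed were 9.44% in E1KD, 5.98% in E1KD SCR, 1.48% in E1KD Platr18 KD and 13.5% after TGFβ. An unadjusted p under 0.05 (limma) was found for 13 of the 19 in E1KD and for 13 in E1KD SCR. The median of the list was 0.03 in E1KD, 0.05 in E1KD SCR and 0.04 in E1KD Platr18 KD. Genes of the list moved in both directions, which a median does not show. The part of the interferon response in the Ly6 levels was not tested.

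**Figure D5:**
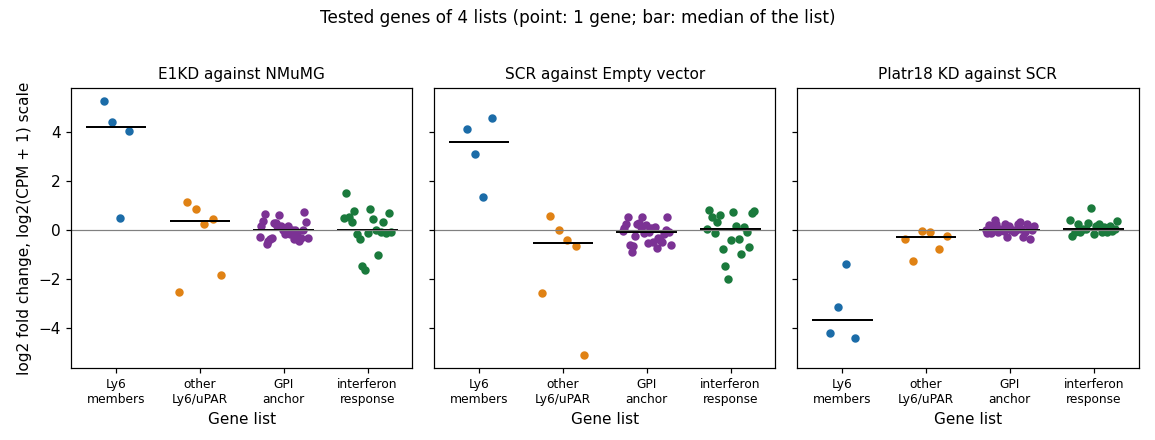
Log2 fold change (vertical axis, log2(CPM + 1) scale) of every tested gene of 4 lists in 3 comparisons, with 1 point per gene and a bar at the median of the list. The medians of the interferon list (0.03, 0.05 and 0.04) and the GPI anchor list (0.01, -0.07 and 0.03) lie near 0, with genes on both sides. The 4 members were chosen with their values known, so their medians (4.23, 3.60 and -3.67) are a description and not a contrast.

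Sca-1 is sorted for in the mammary gland together with other antigens, of which 7 of 11 listed genes were tested. Procr rose in E1KD (1.35) and was lower in clone 16 than in clone 12 (-1.11), as Ly6a was. Procr did not pass in E1KD SCR, from E1KD to M1P, from M1P to L1P, in E1KD Platr18 KD or in clone 12. Ly6a passed in all of these. Itga2, an integrin subunit of luminal progenitors, had the opposite directions: it fell in E1KD (-1.14), rose from E1KD to M1P (1.39), fell from M1P to L1P (-1.15) and was higher in clone 16 than in clone 12 (1.19). After TGFβ, where no member passed the limits, 4 of these 7 genes rose and 0 fell, beside 13.5% of all genes. Itgb3 (3.27), Itgb1 (1.73) and Cd44 (1.68) were among those that rose. Thy1, Kit, Prom1 and Epcam did not reach the filter, with at most 0.0272 CPM.

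Among genes of stratified epithelium, a tissue in which Ly6d and Lypd3 are found, 8 of 22 were tested. Sbsn rose in E1KD (1.81) and clone 12 (2.65) and fell in E1KD Platr18 KD (-1.06), and Cdsn rose in clone 12 (2.10) and fell in E1KD SCR (-1.25). Sprr1a rose in E1KD (1.95) and fell after TGFβ (-1.94) and in clone 12 (-1.80). The other 14 genes of the list, 9 keratins and Trp63 among them, did not reach the filter, with at most 0.894 CPM.

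Markers of cell type were read beside these results. Of 9 epithelial markers, 5 to 7 were at or over 1 CPM in every group, and Epcam was at 0 in both libraries of 8 of the 10 groups. Of 8 mesenchymal markers, 6 rose in E1KD and 6 rose and 1 fell after TGFβ, beside 9.44% and 13.5% of all genes called. From E1KD to M1P 2 of the 8 fell, and their median was -0.17, as over all genes. From M1P to L1P, in E1KD SCR and in clone 12 2 of 8 rose, and in E1KD Platr18 KD 2 of 8 fell. At these 5 steps the genes that passed were Fn1 and S100a4, and the other 6 did not pass. Of all genes 1.21% to 5.98% passed at these steps. Fn1 and S100a4 differed as Ly6a did in E1KD (3.76 and 2.73), from E1KD to M1P (-1.81 and -2.67), from M1P to L1P (1.59 and 1.23), in E1KD SCR (1.75 and 2.36), in E1KD Platr18 KD (-1.59 and -1.06) and in clone 12 (1.11 and 2.18). S100a4 was also lower in clone 16 than in clone 12 (-1.58), and Fn1 did not pass there. In clone 16 against Empty vector Fn1 rose, by 1.05, where Ly6a was lower (-0.22). Fn1 also rose after TGFβ, by 5.86, where Ly6a differed by 0.29. The part of these differences in the Ly6 levels was not tested.

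Ly6a and Ly6c are also made by blood and endothelial cells, which the tumor-derived lines could have carried. Of 11 leukocyte markers, those over 3 reads in at least 1 library numbered 6 in NMuMG, 6 in E1KD, 9 in M1P and 5 in L1P. Ptprc, which encodes the pan-leukocyte antigen CD45, had at most 2 reads in NMuMG, E1KD and L1P libraries and 3 and 4 reads in M1P. Tyrobp and Adgre1 were at 0 in these groups. The summed level of the 11 markers was 94.7 to 96.1 CPM in NMuMG, 89.1 to 101 CPM in E1KD, 88.1 to 92.0 CPM in M1P and 108.5 CPM in both L1P libraries, and most of it was Cd14, at 93.2 and 91.9 CPM in NMuMG itself. Without Cd14, which was left out after its values were seen, the sum was 2.81 to 2.97 CPM in NMuMG and 3.07 to 4.80 CPM in E1KD. It was 6.25 to 6.74 CPM in M1P and 7.21 to 7.6 CPM in L1P. NMuMG treated with TGFβ, which had not passed through an animal, had 6.55 to 7.35 CPM, with Csf1r at 4.45 and 4.76 CPM. Of these markers Lyz2 rose from E1KD to M1P, from 0.276 and 0.166 CPM to 3.23 and 2.87 CPM, and was at 4.57 and 4.74 CPM in L1P. The part of leukocyte RNA in the Ly6 levels was not tested. In the second kind of library the sum of all 11 ranged from 55.4 to 91.5 CPM. The 8 endothelial markers summed to at most 0.681 CPM in any library, and none was tested. The 7 fibroblast markers summed to at most 1.68 CPM except after TGFβ, where they reached 42.9 and 51.6 CPM.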

How the data were processed

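RNA of 20 NMuMG libraries was sequenced by the authors from libraries made by Illumina protocols. Per the submitters' processing notes reads were aligned with Bowtie2 2.2.5 to GRCm38.p6, and per the paper's methods they were assigned to genes by Partek's expectation-maximization method. The authors deposited CPM values for 54986 genes, with 0.0001 added to each, which was subtracted here. Sums per library were 547491 to 797252 CPM, so the values are relative to more reads than those in genes. Of values under 50 reads, 89.4% to 90.5% in the first kind of library and 96.9% to 97.5% in the second were whole multiples of 1 read (within 0.02 of a read), so counts were not recovered for the test. Reads given for named genes are CPM over the value of 1 read.

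The test was limma 3.58.1 (R 4.3.3, lmFit followed by eBayes with its trend option) on log2(CPM + 1), with 10 condition means in 1 model, for the 17106 genes that reached 1 CPM in 2 or more libraries. The call was an unadjusted p under 0.001 with a log2 difference of 1 or more in size, and Benjamini-Hochberg adjusted p-values are beside it. P-values measure the spread between these libraries, which may be technical. The members and gene lists were chosen with earlier results of these data known. Named genes are the members, the called genes of the wider family (at most 5 a comparison), at most 3 called genes of each other list, and the 5 genes most like Ly6a and Ly6e. Eppk1, Mppe1, Pigw and Trp63 were named after their values were seen. Tables used Python 3.11.15, numpy 2.4.6, pandas 2.3.3 and scipy 1.17.1, and figures matplotlib 3.10.9. Sequences are from GENCODE M21 and RefSeq.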

Additional observations from a re-analysis of the deposited data

Results flagged for a closer look

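Some differences of related genes between settings of one contrast passed the limits in a test of the difference itself (limma, adjusted over 17106 genes). The clones that overexpress Platr18 differed, clone 16 minus clone 12, by -1.28 for Psca (adjusted p = 2.7e-08 from limma) and by -6.97 for Tex101 (adjusted p = 3.4e-17 from limma). Empty vector cancels from this contrast, and each clone is a single line whose duplicates share its history. A difference in the effect of Platr18 cannot be told apart from other differences between these lines. The effect of hnRNP E1 silencing differed between the kinds of library, first minus second, by 1.09 for Psca (adjusted p = 1.1e-05 from limma) and by 3.26 for Tex101 (adjusted p = 4.2e-11 from limma). For Psca the first kind had a difference of 0.46 and the second of -0.63, and for Tex101 the values were -1.81 and -5.08. These differences set unlike controls and vectors beside each other: Tex101 was at 2.69 and 2.94 CPM in NMuMG and 38.1 and 38.3 CPM in Empty vector, and at most 0.217 CPM after silencing in either kind, so on the log2(CPM + 1) scale its fall was bounded by the starting level, and no difference in response was read from it. The change from NMuMG differed between hnRNP E1 silencing and TGFβ, the former minus the latter, by 1.35 for Lynx1 (adjusted p = 3.2e-08 from limma), by 2.69 for Psca (adjusted p = 1.5e-12 from limma) and by -2.34 for Tex101 (adjusted p = 5.3e-13 from limma). Both of these effects use the NMuMG libraries as control.

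Among the members, the log2 difference of Ly6a from Empty vector was 2.94 in clone 12 and -0.22 in clone 16. That of Ly6c1 was 2.92 in clone 12 and -0.04 in clone 16. The members were chosen with these values known, so no p-value is given for the difference between the clones.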

How the results depend on the processing

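With duplicates, each number rests on the spread of all 20 libraries, and levels near 3 reads limit Ly6c2, Ly6d, Ly6k and Lypd3. Such levels also limit ratios of Ly6a, with 3 and 4 reads in NMuMG and 4 and 6 in clone 16. Ly6c1 had 6 and 8 reads in NMuMG and 3 and 5 in clone 16. Leaving out any 1 library changed the count of members called in no comparison. Over those fits Ly6a in E1KD ranged from 5.09 to 5.44 and Ly6e from 3.92 to 4.21 on the log2 scale. The size of these differences depends on the pseudocount. With 0.1 it was 7.93 for Ly6a, 6.65 for Ly6c1 and 4.36 for Ly6e in E1KD. That setting gave -6.23 for Ly6a in E1KD Platr18 KD and -5.68 for Ly6a in clone 16 against clone 12.

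Genes called in E1KD (1614) ranged from 1412 to 3074 with 1 library left out and those from E1KD to M1P (614) from 568 to 2021, both upper values without E1KD replicate 2. Fitting the compared groups only gave 758 in E1KD and 274 in M1P. A mean of at least 5 CPM, which tests fewer genes, gave 948 in E1KD, 329 in M1P, 115 in L1P (207 otherwise), 127 in the clones (249), 476 between the clones (750), 139 in E1KD Platr18 KD (253) and 557 in E1KD SCR (1023). A pseudocount of 0.1 gave 1130 in M1P, 465 in L1P, 616 in the clones, 1362 between the clones, 633 in E1KD Platr18 KD and 1708 in E1KD SCR, and clone 12 alone gave 624.

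Members called from E1KD to M1P (3) became 2 with the compared groups only, without Ly6c1. Members called after TGFβ (0) became 1 with median-of-ratios factors and 2 with a pseudocount of 0.1, and those of the clones (2) became 0 with clone 16 alone. Against Empty vector, clone 16 alone gave -0.22 for Ly6a and -0.039 for Ly6c1, and clone 12 alone gave 2.04 for Tex101 (-1.44 for both clones), each the opposite sign. In the wider family a mean of at least 5 CPM left 1 call in E1KD (3 otherwise), 0 after TGFβ (2), 0 in M1P (2), 1 in the clones (2), 1 between the clones (2), 0 in E1KD Platr18 KD (1) and 1 in E1KD SCR (2). The compared groups only left 1 in M1P and ended both calls of Lynx1, in E1KD and in M1P. From M1P to L1P (0) equal sums and a pseudocount of 0.1 each gave 2, and leaving out 1 library gave 0 to 1 (1 without M1P replicate 2). A pseudocount of 0.1 gave 4 in E1KD Platr18 KD. Where no value shows the cause, the cause was not tested.

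Same-numbered libraries deviated together with correlations from -0.125 to 0.287, so the numbers were not taken as pairs. With a replicate block 1606 genes were called in E1KD, 2310 after TGFβ, 607 in M1P, 207 in L1P, 249 in the clones, 750 between the clones, 253 in E1KD Platr18 KD and 1022 in E1KD SCR, and the counts of members and of the wider family were the same as without it. Crossed numbers, added after the data were seen, gave 249 in the clones.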
